A study of Anser anser with 16 samples.

Results

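The comparison described here asks whether the difference between fast and slow growing geese is the same in the pituitary as in the hypothalamus of the same birds. For each gene the level in a bird's pituitary was set against the level in its hypothalamus as a log2 difference of CPM (counts relative to the library's scaled total), and these within-bird differences were compared between birds of high and low growth rate. The members are all 16 RNA sequencing libraries of the series, chosen by their labels and by no measured value, from 8 male Kołudzka White geese of strain W33, all at day 108. The low growth rate group held birds 33, 37, 38 and 40 and the high growth rate group birds 49, 50, 52 and 54, and the sample titles give each bird number once with a pituitary and once with a hypothalamus. All birds were reared indoors at first and later with free range under oat fattening, and the sources used here do not say how a bird came to be classed as slow or fast. Totals ran from 8543585 to 14456667 counts in pituitary and from 9186728 to 18068056 counts in hypothalamus libraries, and 14394 of 19448 genes passed the filter on low counts. Summed markers of pituitary endocrine cells stood at 109100 to 159700 CPM in pituitaries and 3044 to 4639 CPM in hypothalami, and summed astrocyte markers at 136 to 286 and 3377 to 8376 CPM in the same order. Single libraries stood apart. The hypothalamus of bird 38 had the highest PRL (prolactin), CGA and growth hormone transcripts of its tissue. Its sum over the listed pituitary hormone and granule genes was the lowest there, at 5623 CPM. The pituitary of bird 38 was also the lowest of its tissue in this sum, at 113900 CPM against 141500 to 170000 CPM in the others. The pituitaries of birds 38 and 50 stood out in skeletal muscle genes, and those of birds 38, 40 and 50 in ependymal markers. The hypothalamus of bird 50 stood out in immune cell markers, and the pituitary of that bird was also the highest in lymphocyte markers. The same hypothalamus had 8376 CPM of summed astrocyte markers against 3377 to 5896 CPM in the others. Its endothelial and pericyte markers summed to 2500 CPM against 1018 to 1587 CPM.

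The hypothalamus is the brain region that controls the pituitary by releasing peptides into a small portal circulation, and the pituitary answers with growth hormone, prolactin, corticotropin, thyrotropin and the gonadotropins. In birds, growth hormone secretion is driven by growth hormone releasing hormone and thyrotropin releasing hormone and held back by somatostatin. A gene can therefore stand higher in fast growing birds in both tissues, in 1 tissue, or in opposite directions in both. The first case, at equal size, leaves the within-bird difference unchanged, and the others move it. RNA of bulk tissue was measured, so for each gene below fewer cells of a type and less RNA per cell cannot be told apart.

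No gene passed as differing in its growth-rate shift between the tissues. By edgeR's quasi-likelihood test with the bird as a block, 0 of 14394 genes had an adjusted p under 0.05 (0% called), and 339 had an unadjusted p under 0.05, or 2.36% of the genes tested. In 155 of these (1.08%) the pituitary had the higher shift from low to high growth rate, and in 184 (1.28%) it was lower. Where no gene differs, a threshold of 0.05 marks a share of 0.05 of the genes on average, and 2.36% lies below that. The same holds for the unadjusted counts over all genes in each tissue and for the mean of both tissues, given below. DESeq2 with the same block passed 0 genes, with 230 at an unadjusted p under 0.05, limma voom with the block passed 0, with 391, and limma on the within-bird differences passed 0, with 352. The unadjusted edgeR count was 640 without bird 54 and 206 without the block. The median absolute difference of shifts over all genes was 0.13 on the log2 scale, while the median standard deviation of the within-bird differences inside a group was 0.27. For 230 genes (1.6%) the within-bird differences of the 4 high and the 4 low growth rate birds did not overlap, with the high group above in 99 (0.688%) and below in 131 (0.91%). Where the groups do not differ, a share of 0.0286 of the genes would lack overlap on average, which is more than was seen.

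The gene with the smallest p was LHFPL5 (ENSACDG00005004119), a protein-coding gene on scaffold KZ155896.1 from 5329569 to 5333945. Its product is a membrane protein of the tetraspan type that in mammals takes part in the mechanotransduction channel of inner-ear hair cells. In the pituitary it stood at 8.69, 12.3, 12.3 and 12.5 CPM in birds 33, 37, 38 and 40 and at 3.11, 4.64, 4.39 and 3.41 CPM in birds 49, 50, 52 and 54. In the hypothalamus the same birds had 17.8, 17.8, 18.6 and 18.0 CPM at low and 14.0, 14.1, 16.3 and 13.5 CPM at high growth rate. The high growth rate birds were lower in both tissues without overlap, and the gap was wider in the pituitary. The log2 shift, high minus low, was -1.55 ± 0.22 (SE, n = 4 against 4) in the pituitary and -0.32 ± 0.10 in the hypothalamus. The within-bird difference was -1.02, -0.52, -0.58 and -0.52 at low and -2.11, -1.57, -1.85 and -1.93 at high growth rate, which gave a difference of shifts of -1.23 ± 0.20 with an unadjusted p of 0.000115 and an adjusted p of 1.00 in edgeR. A two-sided exact permutation test of the 8 within-bird differences gave p = 0.0286, the smallest that 4 against 4 allows. LHFPL5 was chosen by its p on these same differences, so this value is a description only. Like it, 230 genes (1.6%) had no overlap in these differences. The list of LHFPL5 with its family and partner genes had 7 of 15 members tested, LHFPL5 itself among them. Of these 7, 4 had a difference of shifts above 0 (median 0.04 over the 7). Without bird 52, 2 of 7 did. MYO7A, an unconventional myosin of hair cells, was the member above 0 with the smallest p, at 0.41 ± 0.17 and at 0.25 without bird 52, with bird 52 far above the other high growth rate birds in its within-bird difference, 0.54 against -0.11 to -0.07.

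**Figure D1:**
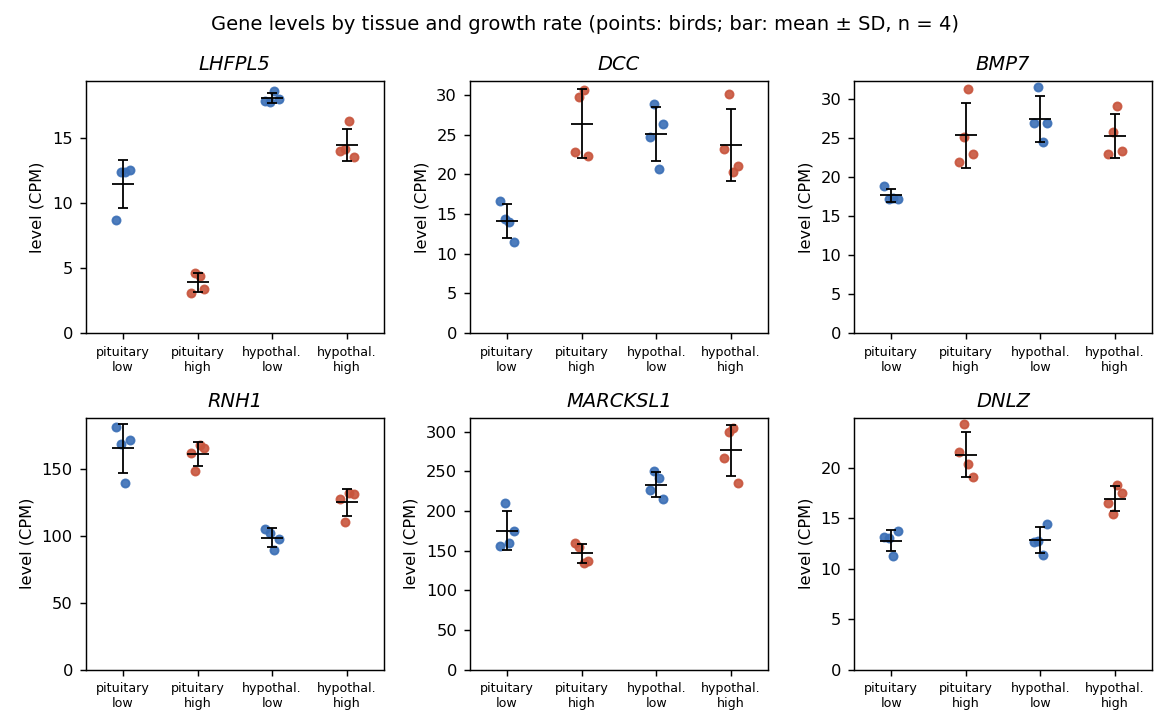
Levels of 6 genes in CPM (y axes, linear from 0) by tissue and growth rate (x axes), with 1 point per bird, blue at low and red at high growth rate, and bars for mean ± SD (n = 4). LHFPL5 is lower at high growth rate in both tissues, DCC and BMP7 are higher in the pituitary and overlap in the hypothalamus, RNH1 and MARCKSL1 are higher in the hypothalamus at high growth rate, and DNLZ is higher in both tissues.

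Among genes whose shift was higher in the pituitary, DCC (ENSACDG00005005726, scaffold KZ155961.1, 1511198 to 1936722), the netrin receptor that steers growing axons, had pituitary levels of 16.6, 14.4, 13.9 and 11.5 CPM at low and of 22.9, 29.7, 30.6 and 22.3 CPM at high growth rate. Its hypothalamus levels were 24.7, 28.8, 20.7 and 26.3 CPM at low and 23.2, 30.2, 20.3 and 21.1 CPM at high growth rate. The pituitary groups did not overlap and the hypothalamus groups did, and every low growth rate pituitary lay below every hypothalamus. The shift was 0.90 ± 0.17 in the pituitary and -0.08 ± 0.15 in the hypothalamus, a difference of 0.99 ± 0.20 (unadjusted p of 0.000645 and adjusted p of 1.00 in edgeR). BMP7 (ENSACDG00005017222, scaffold KZ155905.1, 4930087 to 4975732), a secreted growth factor of the bone morphogenetic protein family, had the same layout. In the pituitary it stood at 18.9, 17.2, 17.4 and 17.2 CPM at low and 22.0, 25.2, 31.3 and 23.0 CPM at high growth rate, and in the hypothalamus at 24.5 to 31.6 and 22.9 to 29.1 CPM. Its difference of shifts was 0.63 ± 0.13, from 0.52 ± 0.14 in the pituitary and -0.12 ± 0.11 in the hypothalamus (adjusted p of 1.00 in edgeR).

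CACNA1I (ENSACDG00005008871), the pore subunit of a T-type calcium channel, was scarce in the pituitary, at 4.27, 3.98, 4.34 and 3.20 CPM at low and 5.13, 6.69, 9.01 and 7.83 CPM at high growth rate, against 39.4 to 57.0 CPM in the hypothalamus. The pituitary groups did not overlap and the difference of shifts was 0.94 ± 0.23. LRRC14, a leucine-rich repeat protein, differed by 0.80 ± 0.16, with pituitary levels of 10.8 to 14.8 CPM at low and 12.3 to 29.3 CPM at high growth rate, where bird 49 lay within the low range. GJD2 (connexin 36), which forms gap junctions between neurons, differed by 0.99 ± 0.26, and its pituitary level was highest in bird 50, at 97.8 CPM. IRS2, an adaptor of the insulin and IGF receptors, differed by 1.05 ± 0.32, with pituitary levels of 16.7, 46.6, 36.6 and 25.7 CPM at low and 35.7, 83.4, 83.1 and 36.9 CPM at high growth rate. Birds 50 and 52 carried that shift, and birds 49 and 54 lay within the low range. The other genes of this direction with the smallest p were SLC4A8, a sodium-driven bicarbonate transporter, the palmitoyltransferase ZDHHC22, RARRES1, a membrane protein induced by retinoids, KLHDC8B, a kelch protein, the neuronal migration protein ASTN2 and the neuron navigator NAV3, at 0.42 to 0.64.

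The opposite direction, a lower shift in the pituitary, was led after LHFPL5 by NSUN7, a putative RNA methyltransferase (-0.54 ± 0.11), and CHRNA5. CHRNA5 (ENSACDG00005012868, scaffold KZ155983.1, 1691172 to 1697715), a subunit of nicotinic acetylcholine receptors, stood at 13.3, 8.04, 7.61 and 11.7 CPM in the pituitary at low and at 6.05, 4.01, 5.82 and 6.31 CPM at high growth rate. In the hypothalamus it stood at 8.76, 4.90, 8.13 and 7.61 CPM and at 8.72, 7.45, 7.71 and 11.4 CPM. The pituitary was lower in every high than in every low growth rate bird, the hypothalamus groups overlapped, and the difference of shifts was -1.13 ± 0.25. Also lower were ANO6, a phospholipid scramblase (-0.53 ± 0.12), BHLHE40, a transcriptional repressor tied to the clock (-0.60 ± 0.16), LGR6, a receptor for R-spondins (-0.77 ± 0.23), PARP12, an interferon-induced ADP-ribosyltransferase (-0.46 ± 0.14), the transcriptional repressor HBP1 (-0.36 ± 0.11) and the kinase FYN (-0.31 ± 0.09). All 24 genes named by their p, 12 in each direction, had an adjusted p of 1.00 in edgeR.

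RNH1 and CAPN10 were the genes among the 24 with the larger shift in the hypothalamus. RNH1 (ENSACDG00005005829, scaffold KZ155856.1, 9098516 to 9105846), the inhibitor of ribonucleases, stood at 106, 103, 89.3 and 97.7 CPM in the hypothalamus at low and at 127, 110, 132 and 131 CPM at high growth rate. Its pituitary levels, 182, 169, 139 and 172 CPM against 162, 148, 168 and 166 CPM, overlapped. The shift was 0.34 ± 0.08 in the hypothalamus and -0.04 ± 0.10 in the pituitary, a difference of -0.37 ± 0.08. CAPN10, a calpain protease, also had non-overlapping groups in the hypothalamus, with shifts of 0.28 ± 0.08 in the hypothalamus against -0.15 ± 0.13 in the pituitary. MARCKSL1, an actin-binding substrate of protein kinase C, was split between both, with 0.25 ± 0.10 in the hypothalamus and -0.26 ± 0.12 in the pituitary. In the other 22 genes the larger shift was in the pituitary, and the biological coefficient of variation between birds was also larger there, 0.262 against 0.163.

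**Figure D2:**
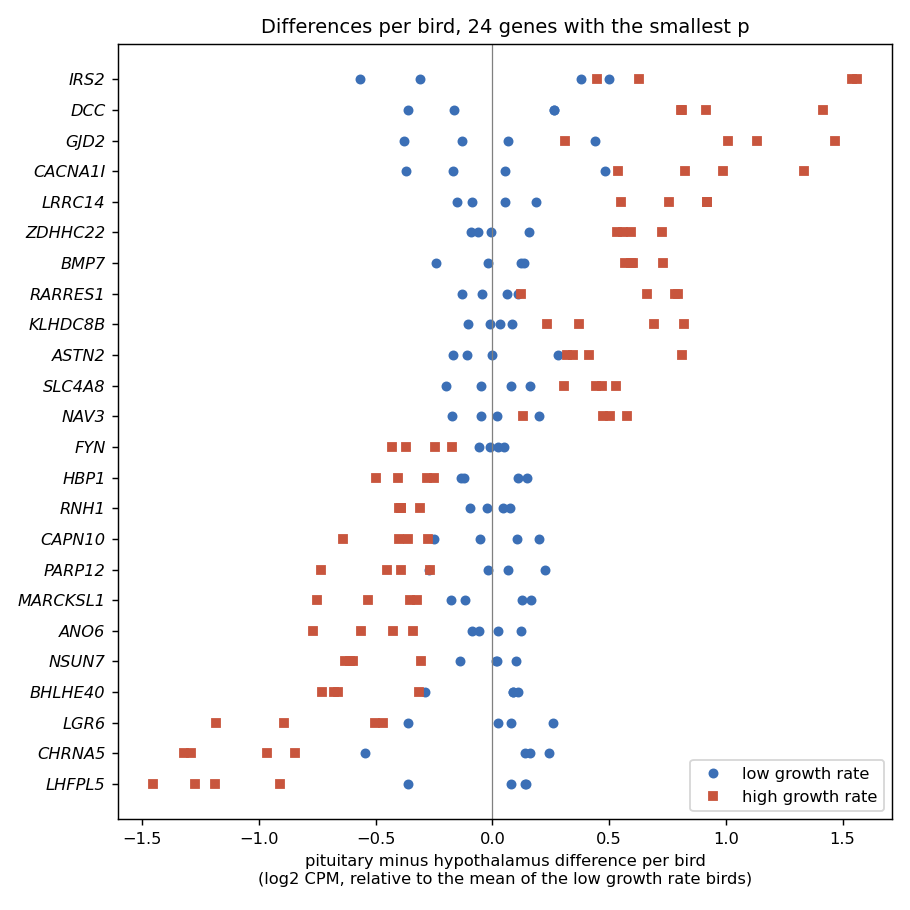
Within-bird difference, pituitary minus hypothalamus, in log2 CPM (x axis) for the 24 genes with the smallest p (rows), each centred on the mean of the low growth rate birds, with 1 blue circle per low and 1 red square per high growth rate bird. In 20 of the 24 genes the circles and squares do not overlap, and these genes were chosen for their separation.

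The shifts of 21 of the 24 genes had opposite signs in the tissues, and so did 287 of the 339 genes at an unadjusted p under 0.05 (1.99% of all genes tested), or 84.7% of them, against 43.5% of all genes tested. The genes were chosen by the difference of shifts, so this share comes in part from the choice and is a description only. At an unadjusted p under 0.05 in both tissues with opposite signs there was 1 gene, without a name (0.00695%), and 0 genes were without overlap in both tissues in opposite directions (0%).

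The second question was which genes shifted the same way in both tissues. Of all genes tested, 8132 (56.5%) had the same sign in both tissues, and the tissues of a bird came from the same animal, so their errors are not independent. By edgeR within each tissue, 0 genes had an adjusted larger p under 0.05 (0%), the larger p being the weaker of the p-values of both tissues. At an unadjusted p under 0.05 in both there were 33 genes (0.229%), 21 higher (0.146%) and 12 lower (0.0834%) at high growth rate. The pituitary had 281 genes at that p (1.95%), and the 33 were 11.7% of them. The hypothalamus had 461 (3.2%), and the 33 were 7.16% of those. DESeq2 passed 0 genes, with 47 at an unadjusted p under 0.05 in both tissues, and limma voom 0, with 33. The count of 33 went to 59 without bird 33, 58 without bird 54 and 22 without birds 38 and 50.

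DNLZ (ENSACDG00005019413, scaffold KZ155848.1, 9129053 to 9130894), a zinc finger protein that assists the mitochondrial Hsp70 chaperone, led the genes higher in both. It stood at 13.1, 13.02, 11.3 and 13.8 CPM in the pituitary at low and at 21.5, 24.3, 20.3 and 19.1 CPM at high growth rate. In the hypothalamus it stood at 12.6, 12.8, 11.4 and 14.5 CPM and at 16.5, 15.4, 18.3 and 17.5 CPM. Neither tissue had overlap between the groups. The shifts were 0.74 ± 0.14 and 0.40 ± 0.11, with unadjusted p-values of 0.000313 and 0.00509 and an adjusted larger p of 1.00 in edgeR. The pituitary shift exceeded the hypothalamus shift by 0.33 ± 0.16, with an unadjusted p of 0.0702 in edgeR.

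The other 9 named genes with the smallest larger p in this direction included 4 ribosomal protein genes. NDUFS5, a subunit of respiratory complex I, stood at 73.5 to 93.1 CPM at low and 98.9 to 129 CPM at high growth rate in the pituitary, and at 120.5 to 142 and 144 to 186 CPM in the hypothalamus, without overlap in either. Its shifts were 0.37 ± 0.12 and 0.31 ± 0.10. The ribosomal protein gene RPL31 stood at 491 to 610 and 611 to 698 CPM in the pituitary and at 216 to 316 and 341 to 351 CPM in the hypothalamus, again without overlap, with shifts of 0.26 ± 0.10 and 0.42 ± 0.11. RPS15 (0.32 ± 0.08 and 0.29 ± 0.09), RPL36 (0.32 ± 0.11 and 0.33 ± 0.11) and RPL35A (0.23 ± 0.08 and 0.25 ± 0.08) are also ribosomal protein genes, which have near-identical copies in many genomes, so how reads were shared between copies is uncertain. BOLA3, which serves iron-sulfur cluster assembly in mitochondria, had 0.31 ± 0.11 and 0.34 ± 0.10. DPM3, a subunit of dolichol-phosphate mannose synthase, had 0.42 ± 0.15 and 0.35 ± 0.12, and DPCD and the mitochondrial membrane protein ROMO1 had shifts of 0.23 to 0.29.

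Lower in both tissues at high growth rate were LHFPL5, as above, and DNM3, a dynamin of neurons (ENSACDG00005012261). DNM3 stood at 11.2 to 14.2 CPM at low and 7.48 to 10.3 CPM at high growth rate in the pituitary, and at 94.6 to 114 and 78.6 to 93.4 CPM in the hypothalamus. Its groups did not overlap in either tissue, with shifts of -0.43 ± 0.17 and -0.27 ± 0.08. DHX57, a putative RNA helicase, was also lower without overlap in both, by -0.19 ± 0.08 and -0.19 ± 0.07. PER2, a repressor of the circadian clock, stood at 171, 111, 119 and 113 CPM in the pituitary at low and 99.6, 92.9, 93.5 and 102 CPM at high growth rate, and at 53.4 to 71.3 and 49.02 to 53.5 CPM in the hypothalamus. The shifts of PER2 were -0.41 ± 0.14 and -0.23 ± 0.09, the low growth rate bird 33 was the highest in both tissues, and without it the mean of the shifts went from -0.32 to -0.18. EIF5B, a translation initiation factor, had -0.23 ± 0.09 and -0.20 ± 0.09. Those next in order, BTG2, an antiproliferative early response gene, the nucleotidase NT5C3B, the nuclear import receptor KPNA1, the adhesion molecule ALCAM and the quinone reductase CRYZ, had a larger p of 0.0502 to 0.0622 in edgeR and so missed an unadjusted 0.05 in 1 or both tissues.

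Without overlap in both tissues and in the same direction there were 12 genes (0.0834%), 8 higher (0.0556%) and 4 lower (0.0278%) at high growth rate. Within the pituitary alone 202 genes had no overlap (1.4%), and within the hypothalamus 276 (1.92%). The named ones were DNLZ, NDUFS5, RPL31, RPL35A, RPS23, TRAIP, a ubiquitin ligase of DNA replication, LHFPL5, DNM3 and DHX57, and 3 had no name.

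**Figure D3:**
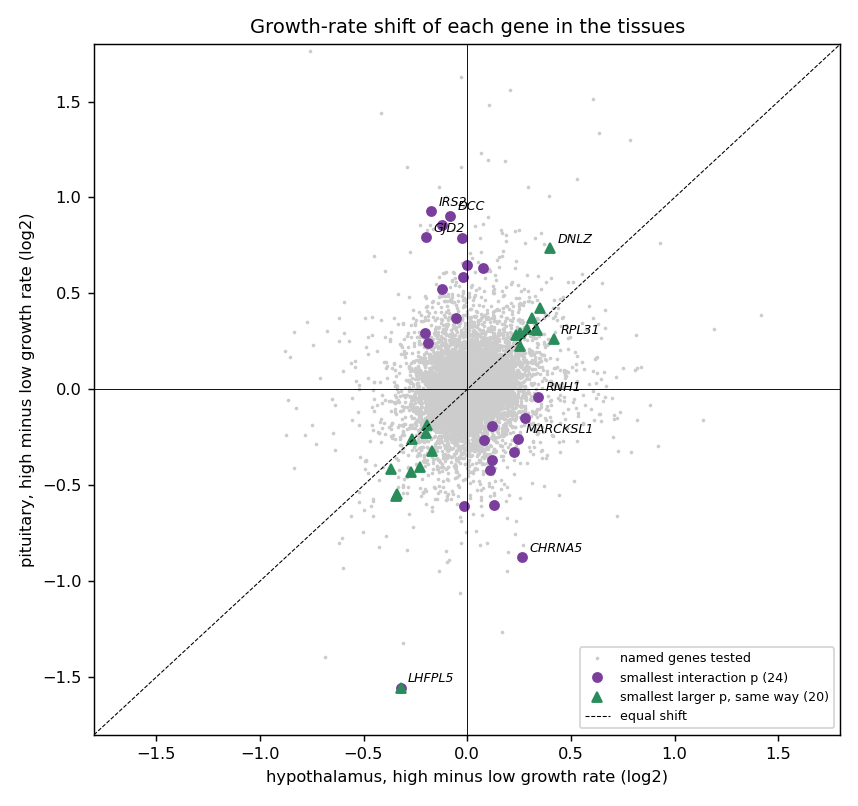
Growth-rate shift, high minus low in log2, in the hypothalamus (x axis) and in the pituitary (y axis) for each named gene tested (grey points), where 4 genes lie outside the plotted range. Purple circles are the 24 genes with the smallest p for a difference between tissues and green triangles the 20 with the smallest larger p in the same direction, both sets chosen by these values. The dashed line marks an equal shift. LHFPL5 belongs to both sets, at -0.32 and -1.55.

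The mean of both tissues per bird was compared as well, since a gene that shifts the same way can be seen there with less error. By limma on these means, 0 genes passed (0%) and 368 had an unadjusted p under 0.05 (2.56%), 219 of them higher (1.52%) and 149 lower (1.04%) at high growth rate. LHFPL5 had the smallest adjusted p, 0.557, with a mean shift of -0.92 ± 0.13. DNLZ (0.56 ± 0.10), NDUFS5 (0.34 ± 0.07), RPL36 (0.32 ± 0.07), RPS15 (0.31 ± 0.07) and the ribosomal protein gene RPL30 (0.30 ± 0.07) had the smallest p among higher genes. RPL30 did not overlap in the hypothalamus, at 191 to 211 CPM at low and 249 to 264.8 CPM at high growth rate, while its pituitary groups overlapped. On the lower side were DNM3, KPNA1, ALDH1A1, an enzyme that makes retinoic acid (-0.66 ± 0.16), and the extracellular matrix protein ADAMTSL3 (-0.39 ± 0.10). All of these except LHFPL5 had an adjusted p of 1.00 in limma. In limma voom with the bird as a random block LHFPL5 was the 1 gene to pass, at an adjusted p of 0.000954, with 510 genes at an unadjusted p under 0.05. In edgeR with 4 group means and no block, which treats both libraries of a bird as independent, LHFPL5 (0.003005) and DNLZ (0.0289) passed, with 700 genes at an unadjusted p under 0.05.

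The pathway lists were read next as counts of members, beside the same counts over all genes, where 49.6% had a difference of shifts above 0, 27.8% were higher and 28.7% lower in both tissues at high growth rate. For the difference of shifts, 2.36% of all genes had an unadjusted p under 0.05 in edgeR. Cytoplasmic ribosomal protein genes stood higher at high growth rate in both tissues in 56 of 58 members and lower in both in 2. The median shift was 0.13 in the pituitary and 0.23 in the hypothalamus, against -0.0007 and -0.0026 over all genes. At an unadjusted p under 0.05 in edgeR there were 7 members in the pituitary, 33 in the hypothalamus and 7 in both tissues, and 0 at an adjusted one. The unadjusted shares over all genes were 1.95%, 3.2% and, the same way in both, 0.229%. The difference of shifts was above 0 in 7 of 58 members and below it in 51, with a median of -0.10 and values of -0.22 to 0.05. RPL9 and RPL3 lay at the low end, at -0.21 ± 0.11 each, and RPL9 was at -0.13 without bird 40. The count above 0 was 1 without bird 38 or 50, 11 to 14 without bird 33, 37, 40 or 54, and 16 without bird 52. Summed over the list the pituitary held 38560 to 42230 CPM at low and 42340 to 47890 CPM at high growth rate, and the hypothalamus 15900 to 19910 and 19440 to 22420 CPM. The pituitary groups did not overlap and the hypothalamus groups did, through birds 33 and 50.

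Mitochondrial lists were also higher in both tissues. Of 42 oxidative phosphorylation genes 38 were higher in both and 1 lower in both, with a median shift of 0.15 in the pituitary and 0.11 in the hypothalamus and 2 members at an unadjusted p under 0.05 in both tissues, against 0.229% of all genes. For this list the difference of shifts was above 0 in 32 of 42 (median 0.04), which went to 15 without bird 50 and 18 without bird 37. Of 52 mitochondrial ribosomal protein genes 42 were higher in both tissues, with medians of 0.10 in each, and 22 had a difference of shifts above 0, which were 35 without bird 40 and 37 without bird 52. Lower in both tissues were 15 of 19 heat shock genes (medians -0.06 and -0.09), 10 of 15 immediate early genes (-0.19 and -0.28), 9 of 17 circadian clock genes (-0.15 and -0.02), 6 of 9 retinoic acid genes (-0.16 and -0.17) and 15 of 27 genes of GABA and glutamate synapses (-0.01 and -0.07), the first median being that of the pituitary. Proteasome subunits, with 10 of 28 higher and 8 lower in both, lay near the shares of all genes.

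Other lists were read by their difference of shifts. All 14 interferon response genes tested, of 24 listed, had a lower shift in the pituitary, with a median of -0.36 beside median shifts of -0.36 in the pituitary and 0.09 in the hypothalamus, and 2 members, PARP12 and OASL, at an unadjusted p under 0.05 in edgeR, against 2.36% of all genes. OASL, an antiviral protein related to oligoadenylate synthetases, stood at 249.5, 55.0, 237 and 666.5 CPM in the pituitary at low and 199, 311, 98.2 and 16.9 CPM at high growth rate, and in the hypothalamus at 70.8, 20.8, 58.5 and 146 CPM and at 56.1, 220.1, 42.4 and 17.8 CPM. The groups overlapped widely in both tissues, with bird 54 lowest in each, and the difference of shifts was -0.97 ± 0.35. The summed list reached 1981 CPM in the pituitary of bird 40 and 472 CPM in that of bird 54, and 880 CPM in the hypothalamus of bird 50. Without bird 38 or bird 54, 1 of 14 members lay above 0.

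Acetylcholine receptor subunits had 7 of 8 members with a lower shift in the pituitary (median -0.32), of which CHRNA5 had an unadjusted p under 0.05 in edgeR, and 12 of the 20 listed were not tested. Without bird 38, 50 or 54, 2 of 8 had a higher shift there, in place of 1. Of 17 circadian clock genes 13 had a lower shift in the pituitary (median -0.13), among them BHLHE40 and the clock repressor CRY2, at -0.41 ± 0.15. BHLHE40 stood at 30.1, 24.4, 28.0 and 39.6 CPM in the pituitary at low and 22.8, 20.1, 18.3 and 18.8 CPM at high growth rate, without overlap, and at 12.3 to 19.9 and 15.2 to 17.0 CPM in the hypothalamus. Voltage-gated calcium channel genes had a higher shift in the pituitary in 14 of 17 members (median 0.16), which were 11 without bird 40, 50 or 52. Their median shift was 0.06 in the pituitary, where 11 of 17 lay above 0, and -0.08 in the hypothalamus, where 15 of 17 lay below 0. CACNA1I, the N-type channel subunit CACNA1B (0.53 ± 0.21) and the T-type subunit CACNA1G (0.34 ± 0.15) had an unadjusted p under 0.05 in edgeR, as had 2.36% of all genes. CACNA1B was at 0.30 without bird 52, and reached 42.2 CPM in the pituitary of bird 52 alone, against 21.7 to 28.5 CPM in the other high growth rate birds.

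Axon guidance genes had a higher shift in the pituitary in 36 of 50 members (median 0.10), beside median shifts of 0.03 in the pituitary and -0.08 in the hypothalamus. The count was 28 without bird 40. Besides DCC, UNC5C, the repulsive netrin receptor, had an unadjusted p under 0.05, at 0.64 ± 0.28, with pituitary levels of 11.4 to 20.9 CPM at low and 16.4 to 29.6 CPM at high growth rate. Of 30 genes of BMP, activin and TGF-beta signalling 15 lay above 0 (median 0.01), BMP7 and the ligand GDF10 (0.86 ± 0.36) among them. Sodium and potassium channels had 17 of 25 above 0, with SCN2B, a sodium channel subunit, at 0.43 ± 0.17. Their count was 13 without bird 40 and 20 without bird 37, and their median shift was -0.02 in the pituitary and -0.10 in the hypothalamus. GABA and glutamate synapse genes had 18 of 27 above 0, which were 12 without bird 37 and 20 without bird 38. None of these lists held a member with an adjusted p under 0.05.

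**Figure D4:**
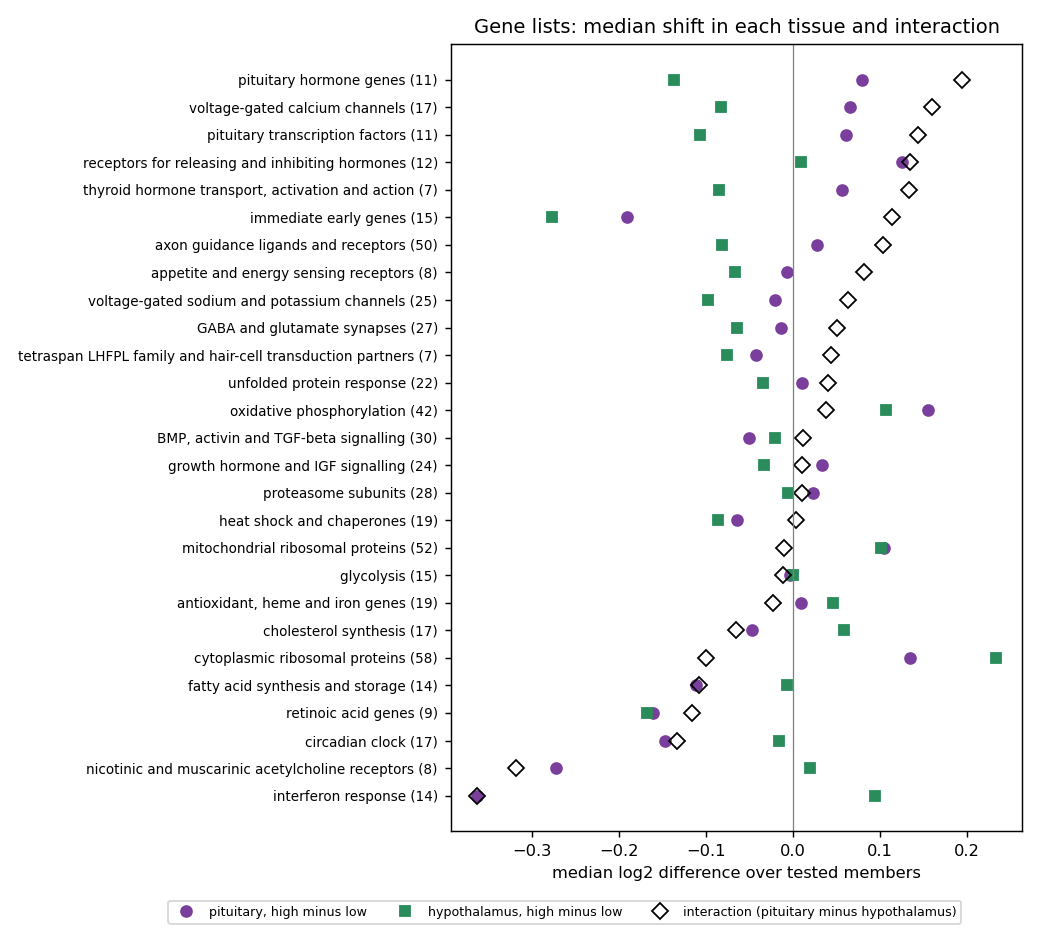
Median over the tested members of each pathway list (rows, number tested in brackets) of the growth-rate shift in the pituitary (purple circles) and hypothalamus (green squares) and of the difference of shifts (open diamonds), in log2 (x axis). Cytoplasmic ribosomal proteins and oxidative phosphorylation are right of 0 in both tissues, immediate early genes left of 0 in both, and the interferon response has its diamond furthest left, at -0.36.

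The listed hormone and secretory granule genes of the pituitary had a difference of shifts above 0 in 11 of 11 tested, with a median of 0.19, and 0 at an unadjusted p under 0.05 in edgeR. Their median shift was 0.08 in the pituitary, with 9 above 0 and 2 below. In the hypothalamus it was -0.14, with 3 above 0 and 8 below. Some of the 11 differences of shifts turned sign when 1 bird was left out. POMC, the precursor of corticotropin, stood at 35340, 24320, 21470 and 31130 CPM in the pituitary at low and at 34600, 29440, 46000 and 38880 CPM at high growth rate, against 62.9 to 150.5 CPM in the hypothalamus. Its difference of shifts was 0.51 ± 0.29, and 0.34 without bird 38 and 0.33 without bird 52. PRL (prolactin) stood at 26490, 19960, 12420 and 36390 CPM in the pituitary at low and 20580, 14850, 26530 and 45230 CPM at high growth rate. In the hypothalamus PRL stood at 9.78, 17.3, 32.9 and 9.12 CPM at low and 10.4, 8.54, 11.01 and 8.47 CPM at high growth rate. The pituitary groups overlapped. Bird 38 had both the lowest pituitary level and the highest hypothalamus level of PRL, and the difference of 0.82 ± 0.69 went to 0.16 without this bird. CGA encodes the alpha chain shared by thyrotropin and the gonadotropins. It had 57.2 CPM in the hypothalamus of bird 38 and 11.4 to 14.3 CPM in the other hypothalami. Its difference of 0.22 ± 0.66 turned to -0.47 without bird 38. The secretory granule genes CHGB (0.61 ± 0.33), CHGA (0.24 ± 0.29), PCSK1 (0.19 ± 0.11), PCSK2 (0.11 ± 0.17), SCG5 (0.09 ± 0.16), SCG2 (0.09 ± 0.21), SCG3 (0.07 ± 0.18) and CPE (0.02 ± 0.14) followed. CHGB was at 0.33 without bird 54, and CHGA at 0.05 without bird 40 and 0.51 without bird 54. Without bird 49, 8 of 11 hormone and granule genes lay above 0, and without bird 38, 10 of 11.

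Growth hormone and most hypothalamic peptides had no named gene in the gene table, and were read from the assembled transcripts by their best protein match. Over 120652 assembled genes the same edgeR fit passed 0 (0%), with 2940 at an unadjusted p under 0.05 (2.44%). The growth hormone transcript, matched to duck somatotropin at 98.6% identity, stood at 7293, 20330, 12890 and 12660 estimated CPM in the pituitary at low and at 14310, 16750, 10320 and 8265 at high growth rate. In the hypothalamus it stood at 5.27, 9.92, 36.4 and 5.55 at low and at 5.41, 6.28, 7.80 and 5.68 at high growth rate. The pituitary groups overlapped, bird 38 again had the highest hypothalamus, and the difference of shifts of 0.61 ± 0.63 went to 0.04 without that bird. LHB, the beta subunit of luteinising hormone, was at 0.80 ± 0.88, and at -0.04 without bird 38. It had 6.01 estimated CPM in the hypothalamus of bird 38 against 0.88 to 1.85 in the others. Its match to the turkey protein had 81.9% identity, with 59.1% of that protein aligned. An assembled prolactin transcript, matched to the chicken protein at 86.4% identity with 35.4% aligned, was at 1.29 ± 0.88. In the hypothalamus this transcript stood at 4.35, 4.72, 6.01 and 0.84 estimated CPM at low growth rate. At high growth rate it stood there at 2.21, 1.20, 1.90 and 1.32. It was not read with birds left out.

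Somatostatin, which holds back growth hormone, stood at 163.5 to 242 estimated CPM in the hypothalamus at low and 175 to 257 at high growth rate. In the pituitary it stood at 2.76, 5.34 and 9.32 in birds 38, 40 and 50 and at 0.11 to 0.70 in the other 5, and its difference of shifts was -0.52 ± 1.89. PENK, the precursor of enkephalins, matched the human protein at 73.3% identity, with 92.1% of that protein aligned. PENK reached 40.6 to 87.1 estimated CPM in the pituitaries of birds 38, 40, 50 and 54 against 5.49 to 7.12 in the rest. This left a difference of shifts of -0.04 ± 1.48. The neurophysin 1 transcript, which matched the goose protein at 98.9% identity and belongs to the oxytocin-type hormone precursor, was at 0.30 ± 0.31. TAC1, from which substance P is cut, matched the rabbit protein at 76.0% identity, with 83.5% of that protein aligned. TAC1 had the smallest p of these, 0.0325 unadjusted and 1.00 adjusted in edgeR, at 1.46 ± 0.56. It was scarce in the pituitary, at 0.72, 0.17, 0.63 and 0.72 estimated CPM at low and 0.83, 1.00, 1.43 and 2.87 at high growth rate, without overlap, and bird 54 was the highest.

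Receptors and targets of the growth axis were divided. Of 24 genes of growth hormone and IGF signalling 13 had a difference of shifts above 0 (median 0.01), and 4 had an unadjusted p under 0.05 in edgeR, against 2.36% of all genes. IRS2, IRS1, the sister adaptor of insulin and IGF receptors (0.42 ± 0.16), and PIK3R1, the regulatory subunit of PI3 kinase (0.32 ± 0.13, and 0.21 without bird 40), had a higher shift in the pituitary, and IGFBP4, a protein that binds IGFs, had a lower one (-0.73 ± 0.27). IGFBP4 stood at 27.1, 31.4, 20.8 and 30.2 CPM in the pituitary at low and 13.6, 27.9, 18.9 and 15.8 CPM at high growth rate, with bird 50 inside the low range. Receptors for releasing hormones had 8 of 12 above 0, with AVPR1A, a vasopressin-type receptor, at 0.60 ± 0.31, and pituitary transcription factors 9 of 11, with NEUROD1 at 0.66 ± 0.40, and at 0.37 without bird 38 and 0.30 without bird 50. Median shifts of the transcription factors were 0.06 in the pituitary and -0.11 in the hypothalamus. Thyroid hormone genes had 6 of 7 above 0 (median 0.13), or 5 without bird 50 and 7 without bird 37. Their median shift was 0.06 in the pituitary and -0.09 in the hypothalamus, where 7 of 7 lay below 0. Appetite receptors had 7 of 8 above 0 (median 0.08), or 5 without bird 40. Their median shift was -0.007 in the pituitary and -0.07 in the hypothalamus, where 7 of 8 lay below 0. HMOX1, which breaks down heme, did not overlap between groups in the pituitary, at 74.8 to 80.6 CPM at low and 108 to 152 CPM at high growth rate, and overlapped in the hypothalamus, and its difference of shifts was 0.47 ± 0.29, with 0.31 without bird 50, 0.72 without bird 52 and 0.26 without bird 54.

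Markers of other cell types are given for the whole lists. Of 11 fibroblast and meningeal markers tested, of 15 listed, 11 had a higher shift in the pituitary (median 0.43), and their summed level in the pituitary was 1380 to 3277 CPM at low and 1357 to 2912 CPM at high growth rate, highest in birds 38, 50 and 52. In the hypothalamus it was 1316 to 1831 and 1424 to 1899 CPM. COL6A3 (1.04 ± 0.85) and COL1A1 (0.84 ± 0.76), both collagens, led them. COL6A3 was at 0.39 without bird 40, and at 0.52 and 0.68 when birds 52 and 50 were left out in turn, and COL1A1 ranged from 0.27 without bird 52 to 1.33 without bird 49. Without bird 50, 8 of 11 lay above 0, and without bird 52, 7 of 11. Of 5 skeletal muscle markers tested, of 15 listed, 5 lay above 0, with a summed pituitary level of 1223 CPM in bird 50, 450.5 in bird 38 and 55.2 to 230.2 in the others, against 78.2 to 133.9 CPM in all hypothalami. ACTA1, the sarcomere actin, reached 647 CPM in the pituitary of bird 50, and its 0.65 ± 0.92 turned to -0.21 without that bird, when 1 of 5 muscle markers lay above 0. Without bird 38 it was at 1.13, and 5 of 5 lay above 0. Microglia and macrophage markers had 9 of 10 below 0 (median -0.32), with a summed hypothalamus level of 429.8 CPM in bird 50 against 148 to 255.5 in the others, and CX3CR1 and C1QC at -0.72 ± 0.38 and -0.51 ± 0.27. Without bird 50, 3 of 10 lay above 0 in place of 1, and CX3CR1 and C1QC were at -0.68 and -0.54. Without bird 40, CX3CR1 was at -0.41. The 3 lymphocyte markers tested, of 14 listed, were also below 0 (median -0.98), with 165 CPM in the hypothalamus of bird 50 against 3.26 to 60.0 in the others, and 0 of 3 lay above 0 without that bird and 1 without bird 37, 38 or 54. In the pituitary bird 50 was also the highest, at 453.8 CPM against 20.83 to 241.8 CPM in the others. Neuronal markers had 10 of 11 above 0 (median 0.14), and their summed hypothalamus level was 6377 to 6726 CPM at low and 5825 to 6403 CPM at high growth rate. Folliculostellate and stem-like cell markers had 8 of 12 below 0 and 4 above (median -0.16), with values of -0.71 to 0.86. Their summed pituitary level was 1046 to 1765 CPM at low and 929 to 1264 CPM at high growth rate. GFRA3 (-0.71 ± 0.25) and SOX2 (-0.35 ± 0.15) had an unadjusted p under 0.05 in edgeR, as had 2.36% of all genes. Of these markers 2 of 12 lay above 0 without bird 38 or 50, in place of 4, and 6 without bird 52. Summed ependymal and tanycyte markers in the pituitary were 1616, 1489 and 1677 CPM in birds 38, 40 and 50 and 333 to 834 CPM in the other 5, against 1009 to 1801 CPM in hypothalami. These were the pituitaries in which somatostatin was highest, and 3 of 7 ependymal markers had a difference of shifts above 0, or 1 without bird 33. The part of these cells in the results above was not tested. Without birds 38 and 50, 391 genes had an unadjusted p under 0.05 and 0 passed, and LHFPL5 was at -1.32.

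**Figure D5:**
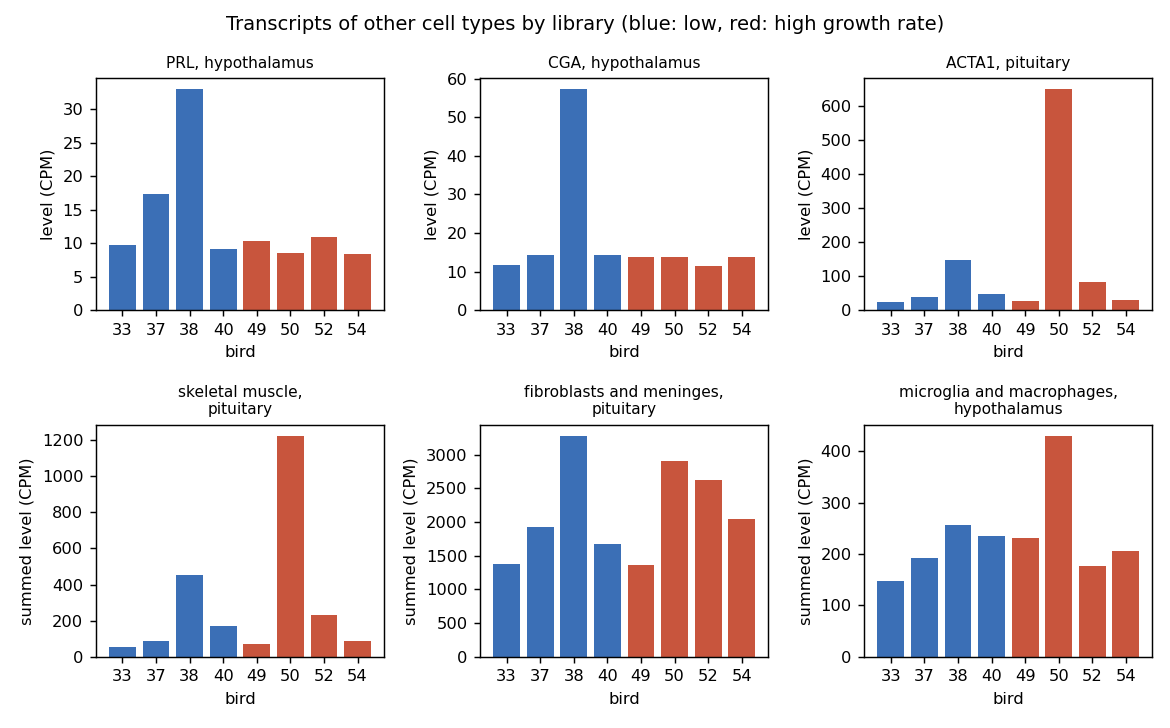
Transcripts of other cell types by library, in CPM (y axes, linear from 0), by bird (x axes), blue at low and red at high growth rate, with 1 bar per library. PRL and CGA in the hypothalamus are highest in bird 38, at 32.9 and 57.2 CPM, skeletal muscle genes in the pituitary are highest in bird 50, fibroblast genes there in birds 38, 50 and 52, and microglial genes in the hypothalamus in bird 50, at 429.8 CPM.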

How the data were processed

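The authors deposited whole-number counts of reads per gene for 16 libraries, without normalization, per the file headers and values, and estimated counts (expected counts) for the genes of an assembly made without a genome. The deposited match of an assembled gene to a protein gives its percent identity, per the file headers. Libraries were made with a TruSeq v2 kit, per the labels' protocols, and no source used here states that counting used strand. The submitters' processing notes list Salmon, kallisto, DESeq2, RSEM, STAR and FastQC and give no role for any. The build behind identifiers and scaffolds was not given in the sources used here. Names came from the authors' table of the pituitary and were present for 9810 of the 14394 genes tested. Of the distinct names, 9316 were RefSeq symbols.

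From the counts, filterByExpr chose the genes tested and TMM over 16 libraries the scaling (edgeR 4.0.16, limma 3.58.1, DESeq2 1.42.0, R 4.3.3). The difference between tissues was the tissue by growth rate term of edgeR's quasi-likelihood F test with the bird as a block, leaving 6 residual degrees of freedom, Benjamini-Hochberg adjusted over all genes at 0.05. This estimate need not equal the difference of the shifts fitted within each tissue where a gene varies widely. Shifts within a tissue came from its 8 libraries. For the same way, the larger p of both tissues was taken where signs agree and 1 otherwise. The mean of both tissues used limma with trend on log2 CPM with a prior count of 2. Standard errors came from the F statistic in edgeR and from the t statistic in limma. The titles pair libraries by bird number, and the libraries of a bird deviated together, with correlations of 0.184 to 0.389 in all 8 birds, each highest with its own bird. Between libraries of a group, chi-square over its degrees of freedom was 7.32 to 67.3, beyond sampling noise, so each was kept. Estimated counts were rounded. The procedure was tested on simulated counts that had the same spread between birds in both tissues, unlike the measured counts. That test does not show how often shifts of the size reported here would be found.

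Genes were named by rank: the 12 per direction with the smallest p for the difference, the 10 per direction with the smallest larger p, 5 per direction for the mean, up to 4 members of each list by p, and all listed pituitary hormone and granule genes tested. Some of the genes so ranked are not reported here. Genes named for their absence of overlap, and levels of single libraries, were picked after their values were seen. The members and lists were chosen with earlier results of these data known. The alternatives were other scalings, no filter, other prior counts, limma, voom, DESeq2, the fit without the block, the other deposited tables and leaving out birds. Leaving out birds 38 and 50 together was added after the data were seen.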

Additional observations from a re-analysis of the deposited data

Results flagged for a closer look

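Within-bird differences between pituitary and hypothalamus were screened for a bird far from the other 3 of its group, in 118 groups of named genes and lists' leading members. Chance alone marks about 1 in 20 such groups, and 9 were marked. Values are log2 CPM differences, pituitary minus hypothalamus.

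Bird 38, of low growth rate, stood apart in 4 genes. It was at -0.093 for CHRNA5, where the other birds of its group had 0.59 to 0.70, at 0.61 for BHLHE40 against 0.99 to 1.01, at 4.44 for NEUROD1 against 5.31 to 5.37, and at 1.38 for ACTA1 against -0.67 to -0.43. For CHRNA5 and BHLHE40 its value lay on the side of the high growth rate birds, and the difference of shifts was -1.31 and -0.70 without it, against -1.13 and -0.60 with it.

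Bird 33, also of low growth rate, had -1.02 for LHFPL5, against -0.58 to -0.52 in the other 3, and without it the difference of shifts of LHFPL5 was -1.34 in place of -1.23. Of the high growth rate birds, bird 52 stood apart for NSUN7, at 1.32 against 0.99 to 1.03, and for MYO7A, at 0.54 against -0.11 to -0.07. Bird 50 stood apart for RNH1, at 0.43 against 0.34 to 0.35. Bird 49 was at 0.58 for BHLHE40, where the others had 0.17 to 0.23.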

How the results depend on the processing

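No alternative passed a gene for the difference between tissues or for a shift the same way in both. For the mean of both tissues, edgeR with 4 group means and no replicate block passed 2 genes and limma voom with the bird as a random block (correlation 0.28) passed 1, where limma on the means passed 0. The fit for the difference without the replicate block passed 0, with LHFPL5 at an adjusted p of 0.451, against 0.0603 in DESeq2 with the block and 0.923 to 1.00 in the other fits on all birds. Leaving out 1 bird in turn passed 0 genes each time, with 282 to 640 genes at an unadjusted p under 0.05 for the difference, 25 to 59 for the same way and 250 to 530 for the mean. The 24 genes named for the difference and the 20 named for the same way kept their sign in every alternative in which they were read. They were chosen for their shifts in these same data, so this adds no support. The assembled tables were not read for these genes, and some of the 20 were not read in every other alternative. Signs turned in 6 of the 59 named or listed genes. Leaving out 1 bird put CGA between -0.47 and 0.65, CPE between -0.10 and 0.11, PCSK2 between -0.035 and 0.21, SCG2 between -0.034 and 0.22, SCG3 between -0.070 and 0.24 and ACTA1 between -0.21 and 1.20. For the assembled transcripts it put LHB between -0.037 and 1.25, somatostatin between -1.81 and 0.52 and growth hormone between 0.04 and 0.92. Without birds 38 and 50 CGA was at -0.22. The cause was not tested. With 4 birds a group, the exact permutation test cannot go below 0.0286, and counts of the scarcest genes, such as TAC1 in the pituitary, limit their precision.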

Other observations

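Of all genes tested, 49.6% had a difference of shifts above 0. Above 0 were 6 of 17 cholesterol synthesis genes (median -0.07), 4 of 14 fatty acid genes (-0.11), 7 of 15 glycolysis genes (-0.01), 13 of 22 genes of the unfolded protein response (0.04) and 7 of 19 antioxidant, heme and iron genes (-0.02). The cholesterol count was 2 without bird 38 and 3 without bird 50 or 54, and that of the unfolded protein response 8 without bird 49 or 54. Retinoic acid genes had 3 of 9 above 0, which were 7 without bird 33 and 5 without bird 37 or 54. The unfolded protein response sensor ERN1 had a lower shift in the pituitary, at -0.34 ± 0.13, with levels of 70.9 to 91.2 CPM at low and 67.1 to 76.1 CPM at high growth rate. Of the fatty acid genes 13 of 14 stood lower in the pituitary at high growth rate, with a median shift of -0.11, against 8 of 14 in the hypothalamus.

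Of the cell type markers, 5 of 8 astrocyte, 2 of 5 myelin and 6 of 11 endothelial markers had a difference of shifts above 0, as had 8 of 10 pituitary endocrine markers and 0 of 4 red blood cell markers. Single birds moved these counts. Without bird 50, 1 astrocyte, 1 myelin and 1 endothelial marker lay above 0, and without bird 33, 2 astrocyte, 1 myelin and 2 endothelial markers. Astrocyte markers above 0 were 3 without bird 37, myelin markers 4 without bird 52 and 1 without bird 37 or 54, and endothelial markers 3 without bird 52. Red blood cell markers above 0 were 4 of 4 without bird 38, 3 without bird 49 and 2 without bird 54. Summed myelin markers in the hypothalamus ranged from 3142 to 9175 CPM at low and from 2945 to 9003 CPM at high growth rate.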
